A study of Mus musculus with 11 samples.

Results

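Angiogenic and tissue growth factors of macrophages were followed as 8 genes: Vegfa, Vegfb, Thbs1, Inhba, Ereg, Pdgfa, Pdgfb and Igf1. They were taken by symbol from the probe sets that the platform annotation gives to 1 gene, each gene had 1 such probe set, and all 8 were among the 18755 genes measured. The cells were primary macrophages grown from C57Bl/6 wild type mouse bone marrow over 1 week, with M-CSF, their growth factor, at 5 ng/ml, and taken 24 hours after they were plated anew. One group was stimulated for 1 hour with 100 ng/ml LPS (lipopolysaccharide, a bacterial cell wall component) together with 10 µM prostaglandin E (PGE, 4 arrays). Another received 100 ng/ml LPS alone for 1 hour (3 arrays), and the third was left untreated (4 arrays). PGE without LPS was not among the groups, so an effect of PGE itself and an effect that needs LPS cannot be told apart. Whether the replicates came from separate animals or cultures is not stated, so p-values measure only the spread between these samples.

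Macrophages that clear infection or tissue damage also secrete factors that rebuild tissue. Vegfa makes endothelial cells divide and vessels leak, Vegfb is its relative with a milder role in vessels, and thrombospondin (Thbs1) restrains vessel growth and activates latent TGF-beta. Activin A (a dimer of Inhba chains) and epiregulin (Ereg, a ligand of the EGF receptor) act on epithelium and stroma, while the platelet-derived growth factors and Igf1 drive the growth of mesenchymal and other cells. Prostaglandin E binds receptors of which some raise cyclic AMP, and cyclic AMP signals reach transcription through CREB.

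Values are deposited log2 expression values, where a difference of 1 is a 2-fold change. Probe sets differ in brightness, so levels are compared between arrays for 1 gene and never between genes. Across genes, the correlation was 0.996 to 0.998 between arrays of the same group and 0.980 to 0.993 otherwise. Changes are log2 differences ± SE from a limma fit over all 11 arrays, and genes with an adjusted p below 0.05 (Benjamini-Hochberg, 18755 genes) are said to have passed. The 3 comparisons share arrays, so their values are given side by side and not as independent results. The macrophage markers, 9 genes that include Csf1r and Cd68, averaged 11.79 to 11.83 in LPS plus PGE, 11.77 to 11.83 in LPS and 11.59 to 11.67 in untreated arrays. Cd14, which is among them, rose by 2.22 with LPS plus PGE and 1.64 with LPS over untreated cells, while Csf1r had means of 12.53, 12.48 and 12.54 and Cd68 of 12.79, 12.68 and 12.78 in LPS plus PGE, LPS and untreated arrays. Msr1, also among them, had means of 11.07, 11.37 and 11.08 in the same order. Between LPS plus PGE and LPS, Cd14 rose and Msr1 fell, and 7 of the 9 did not pass.

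Adding PGE to LPS raised 4 of the transcripts and lowered 2. Thbs1, Inhba and Vegfa rose 8.08-fold, 5.31-fold and 4.59-fold over LPS alone, and Ereg rose 1.47-fold. Pdgfb and Pdgfa fell, by 0.77 and 0.28 on the log2 scale. Vegfb and Igf1 did not pass in any of the 3 comparisons. Among all genes ordered by their change from LPS to LPS plus PGE, Thbs1 was number 11, Inhba number 20 and Vegfa number 23 from the top of 18755, and Pdgfb was number 91 from the bottom.

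Against LPS alone, LPS plus PGE raised 4 of the 8 genes, where 11.9% of all genes rose, and lowered 2, where 12.9% of all genes fell. Against untreated cells, LPS plus PGE raised 4 of 8, with 13.8% of all genes, and lowered 1, with 17.9% (31.7% in either direction). LPS against untreated cells raised 4 of 8, with 6.55% of all genes, and lowered 0 by limma (6.69% of all genes fell). Rises of at least 2-fold were 3 of 8 over LPS (0.565% of all genes), 4 of 8 for LPS plus PGE over untreated cells (1.86%) and 1 of 8 for LPS (1.57%). Arrays did not overlap between LPS plus PGE and LPS for 3 genes on the higher side (15.5% of all genes) and 2 on the lower (18.3%). Between LPS plus PGE and untreated cells this held for 4 higher (13.7%) and 1 lower (21.4%), and between LPS and untreated cells for 4 higher (10.5%) and 0 lower (12.6%). The median change of the 8 genes was 0.28 for LPS plus PGE against LPS, 0.68 for LPS plus PGE against untreated and 0.38 for LPS against untreated, beside medians over all genes of -0.0045, 0.017 and -0.015. The 8 genes were chosen with earlier results of these data known, so these counts and medians describe them and are not a test. Array scaling moved the balance of rises and falls over all genes. With equal array medians the 2225 rises and 2416 falls of LPS plus PGE against LPS became 1804 and 3004, the 2587 and 3359 against untreated became 4499 and 2119, and the 1229 and 1254 of LPS against untreated became 2747 and 613. After cyclic loess normalization the split of LPS plus PGE against untreated was 2129 rises and 1788 falls, and after quantile normalization 2596 and 2206.

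**Figure D1:**
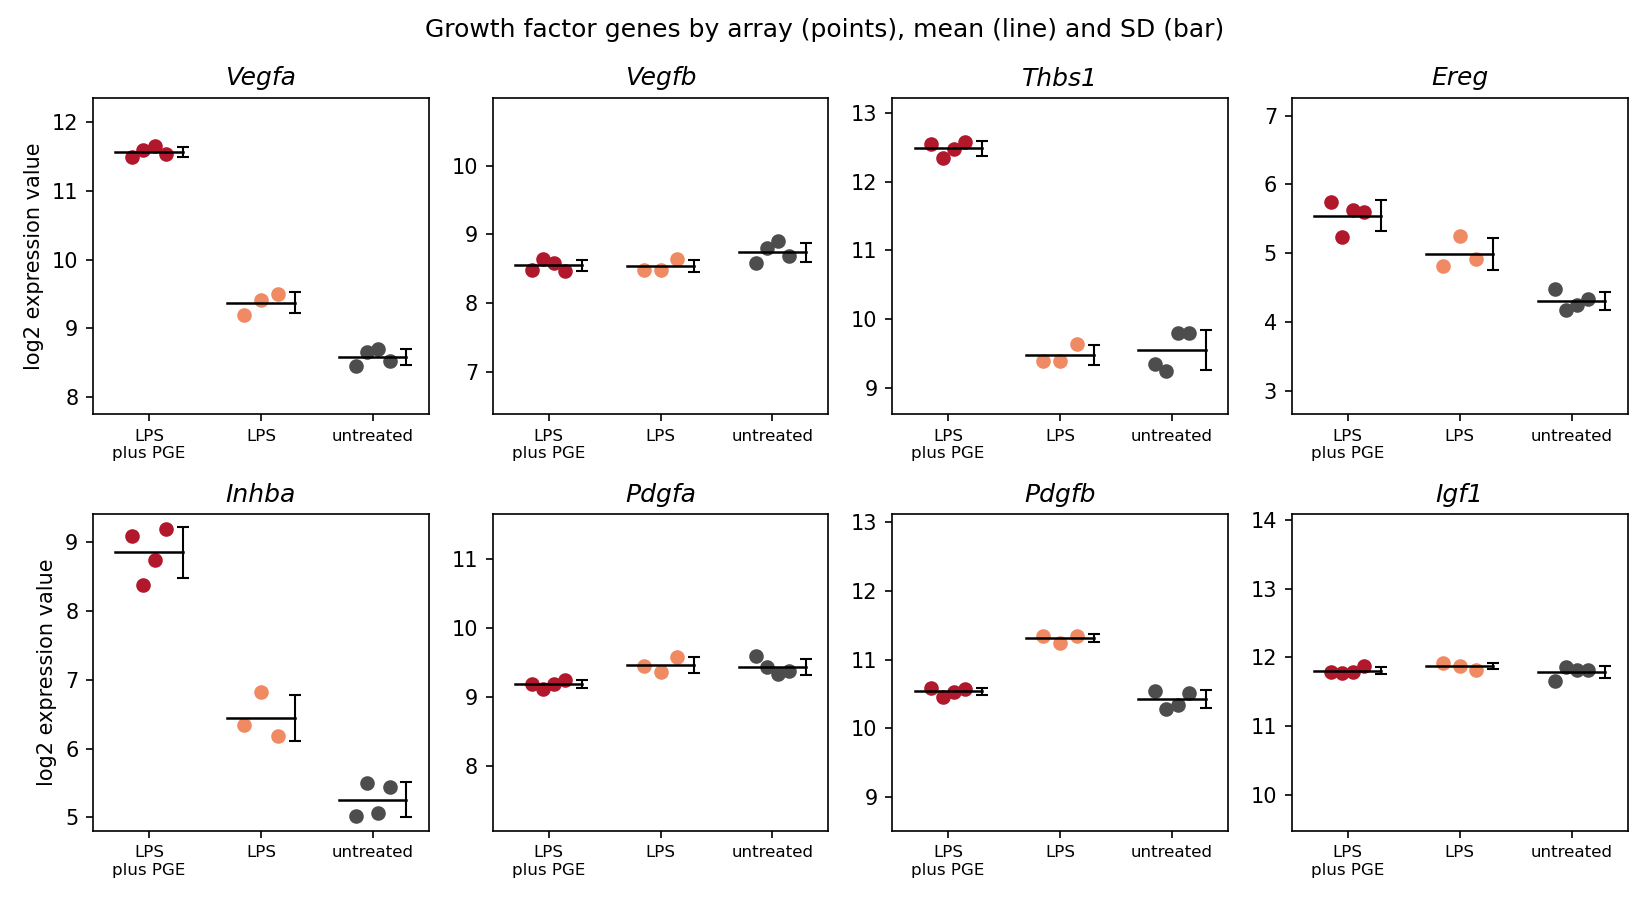
Each panel plots 1 gene, with its log2 expression value on the y axis (panels span the same number of log2 units around different centres) and the LPS plus PGE, LPS and untreated arrays on the x axis. Points are arrays, lines group means and bars SD. Vegfa, Thbs1 and Inhba have all 4 LPS plus PGE arrays above every other array, and Pdgfb has its 3 LPS arrays (11.24 to 11.35) above every other array.

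Vegfa, the main growth factor for endothelial cells, was read at 11.49, 11.59, 11.65 and 11.54 in the 4 LPS plus PGE arrays. The LPS arrays gave 9.20, 9.41 and 9.50, and the untreated arrays 8.45, 8.65, 8.70 and 8.53. The 3 groups did not overlap, and the gap between LPS plus PGE and LPS was larger than that between LPS and untreated. LPS plus PGE raised Vegfa over LPS by 2.20 ± 0.09 (limma adjusted p = 1.84e-08), which is 4.59-fold with a 95% interval from 4.04 to 5.23. Over untreated cells the rise was 2.98 ± 0.08, or 7.91-fold (limma adjusted p = 4.25e-11), and LPS alone gave 0.78 ± 0.09, or 1.72-fold (limma adjusted p = 4.95e-05).

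RefSeq (GRCm38.p6) gives Vegfa 2 transcription starts, one at the head of the gene and one inside it. The 250 bases before each are shown because Vegfa rose under both stimuli, and 1 probe set does not separate the starts. The search covered 6 patterns on both strands, and matches are in capitals: the cyclic AMP response element TGACGTCA, its core TGACG, the AP-1 site TGANTCA, the hypoxia core ACGTG, the NF-kB pattern (GGGA and CC with any 4 bases between) and the SP1 box GGGCGG. TGACGTCA contains TGACG.
Vegfa, start at the head of the gene (chr17:46032378-46032627, minus strand): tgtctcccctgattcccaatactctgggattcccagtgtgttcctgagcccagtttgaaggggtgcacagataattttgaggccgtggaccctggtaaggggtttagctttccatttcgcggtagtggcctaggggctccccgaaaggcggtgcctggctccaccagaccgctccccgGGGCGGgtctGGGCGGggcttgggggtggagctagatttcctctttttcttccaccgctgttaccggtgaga
Vegfa, start inside the gene (chr17:46025164-46025413, minus strand): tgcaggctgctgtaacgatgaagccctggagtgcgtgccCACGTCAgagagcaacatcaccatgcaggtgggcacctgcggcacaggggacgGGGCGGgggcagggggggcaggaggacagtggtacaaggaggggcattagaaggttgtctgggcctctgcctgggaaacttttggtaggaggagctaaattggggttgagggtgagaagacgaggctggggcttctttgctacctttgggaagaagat
The window at the head of the gene holds GGGCGG at 2 places and none of the other patterns. The inner window holds TGACG and ACGTG on the opposite strand, overlapping in the run in capitals that begins 211 bases before the start, and 1 GGGCGG. Of 32851 RefSeq windows of 250 bases, 17.8% held TGACG, 1.55% TGACGTCA, 6.75% TGANTCA, 16.6% ACGTG, 17.6% the NF-kB pattern and 32.7% GGGCGG. These matches are letters only and no binding was measured.

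Vegfb did not follow Vegfa. It was read at 8.49, 8.65, 8.59 and 8.47 in LPS plus PGE arrays, 8.49, 8.48 and 8.64 in LPS arrays and 8.58, 8.80, 8.90 and 8.69 in untreated arrays. All groups overlapped. The difference between LPS plus PGE and LPS was 0.01 ± 0.08 (limma adjusted p = 0.91), with a 95% interval from -0.17 to 0.20. Against untreated cells Vegfb stood at -0.19 ± 0.08 with LPS plus PGE (limma adjusted p = 0.0773) and -0.21 ± 0.08 with LPS (limma adjusted p = 0.135). The first of these passed with a trended and robust variance (adjusted p = 0.0405), with replicate number as a block (adjusted p = 0.0437) and without untreated replicate 1 (adjusted p = 0.0336). It did not pass in the other settings and was smaller after each rescaling. The change was -0.055 after cyclic loess normalization (adjusted p = 0.669), -0.13 after quantile normalization (0.23) and -0.11 with equal array medians (0.258).

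Other angiogenic peptides were read from a list of related genes, of which 16 were measured. LPS plus PGE against LPS raised 1 of them and lowered 1, where 11.9% of all genes rose and 12.9% fell. The same shares go with the lists that follow, for counts before cyclic loess normalization. Placental growth factor (Pgf), which like Vegfb binds the receptor Flt1, rose by 0.91 ± 0.26, with means of 7.29 ± 0.65 in LPS plus PGE (SD, n = 4), 6.38 ± 0.20 in LPS (SD, n = 3) and 5.27 ± 0.05 in untreated arrays (SD, n = 4). Its limma adjusted p was 0.0268, and 14 of 20 other settings kept the call. It was 0.0651 without LPS plus PGE replicate 4, 0.0532 without LPS plus PGE replicate 1, 0.0958 without LPS replicate 3 and 0.0572 without LPS replicate 1. Edn1, the vessel-constricting peptide endothelin, fell by 0.88 on the log2 scale (SE 0.22, limma adjusted p = 0.0148), with means of 5.39 in LPS plus PGE and 6.27 in LPS arrays.

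Against untreated cells 5 of the 16 rose and 1 fell with LPS plus PGE, and 3 rose and 1 fell with LPS. Of all genes, 13.8% rose and 17.9% fell with LPS plus PGE, and 6.55% rose and 6.69% fell with LPS. Pgf rose by 2.02 ± 0.24 with LPS plus PGE and 1.11 ± 0.26 with LPS. The vasodilator peptide adrenomedullin (Adm) rose by 1.54 ± 0.18 with LPS plus PGE and 1.65 ± 0.20 with LPS, and Edn1 by 1.46 ± 0.20 and 2.35 ± 0.22. Angptl4, a lipase inhibitor with effects on vessels, fell by 1.68 with LPS plus PGE (SE 0.08) and by 1.50 with LPS (SE 0.09). The liver-active growth factor Hgf was read at means of 9.55, 9.48 and 9.58 in LPS plus PGE, LPS and untreated arrays and did not pass in any comparison.

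Of 9 receptors for these ligands and for thrombospondin, 3 rose and 0 fell by limma between LPS plus PGE and LPS (1 rose after cyclic loess normalization). They were Cd47, the lymphatic VEGF receptor Flt4 (0.41 ± 0.13, limma adjusted p = 0.0365) and the angiopoietin co-receptor Tie1 (0.31 ± 0.09, limma adjusted p = 0.0298). Flt4 was dim, with means of 4.1 in LPS plus PGE and 3.7 in LPS arrays, and the arrays of these groups overlapped. Cd47, a thrombospondin receptor better known as a "do not eat me" signal, rose by 0.33 ± 0.07, with a mean of 11.52 in LPS plus PGE and 11.18 in LPS arrays (limma adjusted p = 0.00814). The scavenger receptor Cd36, which also binds thrombospondin, had means of 11.86, 11.85 and 11.93 in LPS plus PGE, LPS and untreated arrays and did not pass in any comparison. Flt1 rose over untreated cells by 0.48 ± 0.12 with LPS plus PGE (limma adjusted p = 0.0111) and by 0.46 ± 0.13 with LPS (limma adjusted p = 0.038). It did not pass between LPS plus PGE and LPS (0.02 ± 0.13, limma adjusted p = 0.931). Kdr, the main signalling receptor for Vegfa, did not pass with LPS plus PGE over untreated cells (-0.12 ± 0.12, limma adjusted p = 0.466). The co-receptor Nrp1 fell by 0.20 in that comparison (SE 0.06, limma adjusted p = 0.0236), a call that held in 15 of 20 other settings. Of 9 endothelial markers, which share Kdr, Tie1 and Tek with the receptor list, none fell and there were 2 rises by limma with LPS plus PGE against LPS, Cldn5 and Tie1, and 0 after cyclic loess normalization. Their mean level ran from 4.94 to 5.01 in LPS plus PGE, 4.82 to 4.90 in LPS and 4.77 to 4.83 in untreated arrays, and the part of such cells in the receptor values was not tested.

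Thbs1, the secreted matrix protein that restrains vessel growth, was read at 12.54, 12.34, 12.47 and 12.58 in LPS plus PGE arrays. The LPS arrays gave 9.39, 9.39 and 9.64, and the untreated arrays 9.34, 9.25, 9.80 and 9.79. LPS arrays lay within the range of untreated arrays, and all LPS plus PGE arrays lay above both. LPS plus PGE raised Thbs1 by 3.01 ± 0.14 over LPS, which is 8.08-fold with a 95% interval from 6.57 to 9.93 (limma adjusted p = 6.31e-08), and by 2.94 ± 0.13 over untreated cells (limma adjusted p = 4.84e-09). LPS alone gave -0.08 ± 0.14 (limma adjusted p = 0.779), with an interval from -0.37 to 0.22.

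The other thrombospondins, Thbs2, Thbs3, Thbs4 and Comp, had 0 calls by limma between LPS and untreated cells. LPS plus PGE against LPS raised 1 of the 4, Thbs3 (0.27 ± 0.09, limma adjusted p = 0.0456), and against untreated cells 1, Thbs2 (0.34 ± 0.10). Both were dim, with means of 4.39, 4.12 and 4.23 for Thbs3 in LPS plus PGE, LPS and untreated arrays and 4.39, 4.18 and 4.05 for Thbs2. After cyclic loess normalization 0 of them passed in any comparison. Platelets carry much thrombospondin protein, and of 5 measured platelet and megakaryocyte markers 0 passed by limma in any comparison. Their mean level ran from 6.22 to 6.41 in LPS plus PGE, 6.19 to 6.47 in LPS and 6.13 to 6.30 in untreated arrays. The part of such cells in the Thbs1 values was not tested. In bulk RNA, fewer cells of a type and less RNA per cell cannot be told apart.

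Inhba encodes the chain of activin A, a member of the TGF-beta family that follistatin binds and blocks. It was read at 9.10, 8.38, 8.74 and 9.20 in LPS plus PGE arrays, 6.35, 6.82 and 6.18 in LPS arrays and 5.02, 5.50, 5.06 and 5.45 in untreated arrays. No groups overlapped, although the replicates spread widely, with an SD of 0.37 in LPS plus PGE, 0.33 in LPS and 0.25 in untreated arrays. The rise over LPS was 2.41 ± 0.21, or 5.31-fold with a 95% interval from 3.87 to 7.28 (limma adjusted p = 1.94e-05). Over untreated cells LPS plus PGE gave 3.60 ± 0.19, or 12.1-fold (limma adjusted p = 4.27e-08), and LPS gave 1.19 ± 0.21, or 2.29-fold (limma adjusted p = 0.00222).

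The window before the RefSeq start of Inhba is shown because this gene rose with Vegfa in all 3 comparisons.
Inhba (chr13:16011601-16011850, plus strand): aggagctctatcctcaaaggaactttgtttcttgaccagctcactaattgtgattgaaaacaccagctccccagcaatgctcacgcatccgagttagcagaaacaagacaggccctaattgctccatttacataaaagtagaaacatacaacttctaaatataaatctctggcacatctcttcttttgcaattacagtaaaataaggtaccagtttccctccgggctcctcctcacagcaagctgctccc
None of the 6 patterns occurs in it, and so it has no capitals. Nothing about any factor follows from that, since only these letters in this window were searched. Sequence windows were matched for 5 of the 8 genes: Vegfa, Vegfb, Inhba, Pdgfa and Igf1.

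**Figure D2:**
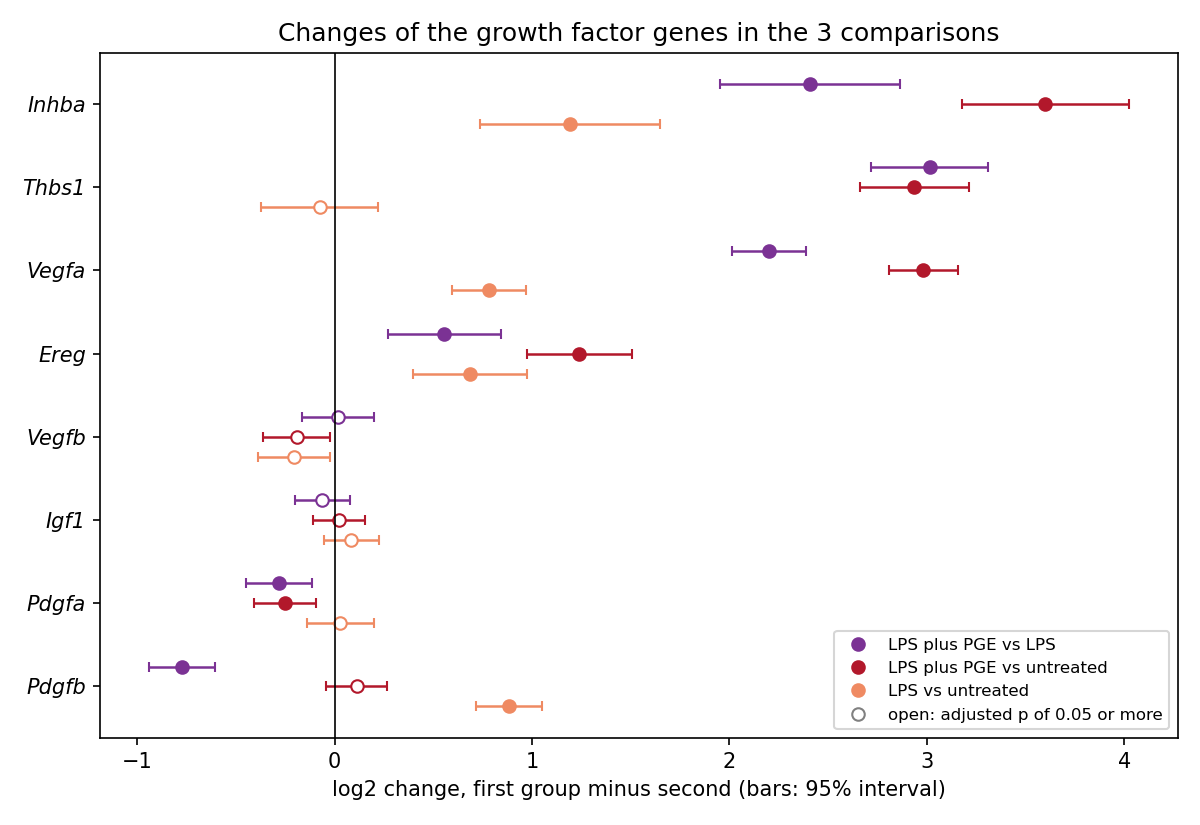
The x axis gives the log2 change of each gene, first group minus second, and rows are genes. Points are limma estimates and bars 95% intervals for LPS plus PGE against LPS, LPS plus PGE against untreated and LPS against untreated, and open points have an adjusted p of 0.05 or more. Thbs1 has its LPS point at -0.08 and its other points at 3.01 and 2.94, while Pdgfb has points on both sides of 0.

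Among 17 measured genes of the activin, TGF-beta and BMP pathways, 3 rose and 2 fell with LPS plus PGE against LPS (1 rose and 1 fell after cyclic loess normalization). The rises were Inhbe, another activin chain (0.46 ± 0.12, limma adjusted p = 0.0174), its relative Inhbb (0.38 ± 0.11, limma adjusted p = 0.0262) and Bmp2. Both activin chains were dim, with means of 3.53 and 3.07 for Inhbe and 4.09 and 3.71 for Inhbb in LPS plus PGE and LPS arrays, below the lower tertile of gene means (4.31), and Inhbe had an adjusted p of 0.0694 after cyclic loess normalization. Bmp2, a bone morphogenetic protein, rose by 0.45 ± 0.15 (limma adjusted p = 0.0449), a call that ended for 8 of the 11 arrays when each was left out, with adjusted p up to 0.103 without LPS replicate 3, and after cyclic loess normalization (0.204). Acvr2a, an activin receptor, fell by 0.46 (SE 0.09, limma adjusted p = 0.00577; 0.0502 after cyclic loess normalization), with means of 7.55 in LPS plus PGE, 8.01 in LPS and 7.30 in untreated arrays. Against untreated cells LPS alone raised Acvr2a by 0.71 ± 0.09.

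LPS plus PGE against untreated cells raised 8 of the 17 and lowered 2 (6 and 2 after cyclic loess normalization), with Bmp2 at 1.47 ± 0.14 and Tgfb3 at 0.77 ± 0.15. The activin receptor Acvr1b fell by 0.51 (SE 0.08). LPS against untreated cells raised 3 and lowered 1, Acvr1b again (-0.45 ± 0.09), with Bmp2 at 1.02 ± 0.15. Bmp2 was dim too, with means of 4.45, 4.00 and 2.98 in LPS plus PGE, LPS and untreated arrays. Its untreated mean lay below the lower quartile of every array (3.61 to 3.76). Tgfb1, the form of TGF-beta that thrombospondin activates, had means of 11.75, 11.69 and 11.74 in LPS plus PGE, LPS and untreated arrays and did not pass in any comparison.

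Ereg, a ligand shed from the cell surface that binds receptors of the EGF family, was read at 5.74, 5.23, 5.62 and 5.59 in LPS plus PGE arrays. The LPS arrays gave 4.81, 5.25 and 4.91, and the untreated arrays 4.48, 4.17, 4.24 and 4.33. LPS plus PGE and LPS arrays overlapped at LPS plus PGE replicate 2 and LPS replicate 2, and both lay above all untreated arrays. LPS plus PGE raised Ereg by 0.55 ± 0.13 over LPS (1.47-fold, limma adjusted p = 0.0119; 0.0499 after cyclic loess normalization) and by 1.24 ± 0.12 over untreated cells (2.36-fold, limma adjusted p = 1.06e-05). LPS gave 0.69 ± 0.13 over untreated cells (1.61-fold, limma adjusted p = 0.00402). The median over all probe sets of an array lay between 5.03 and 5.18 and background was not measured, so its part in the dim values of Ereg was not tested.

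Of 15 measured genes for other EGF family ligands, their receptors and shedding, 5 rose and 2 fell with LPS plus PGE against LPS (3 rose and 0 fell after cyclic loess normalization). Nrg1, neuregulin, rose by 1.04 ± 0.11, with means of 5.74 ± 0.16 in LPS plus PGE (SD, n = 4), 4.70 ± 0.12 in LPS (SD, n = 3) and 4.63 ± 0.16 in untreated arrays (SD, n = 4). Like Thbs1, it did not pass between LPS and untreated cells (0.07 ± 0.11, limma adjusted p = 0.723). Hbegf, a heparin-binding ligand of the EGF receptor, rose by 0.84 ± 0.16 over LPS, with means of 7.02 in LPS plus PGE, 6.18 in LPS and 4.65 in untreated arrays.

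Errfi1, a feedback inhibitor of the EGF receptor, rose by 0.34 ± 0.07 over LPS. Against untreated cells it rose by 3.35 ± 0.06 with LPS plus PGE and 3.01 ± 0.07 with LPS, and Hbegf by 2.37 ± 0.15 and 1.52 ± 0.16. Rhbdf2, which carries the sheddase Adam17 to the surface, rose by 0.92 ± 0.08 with LPS over untreated cells. It was lower in LPS plus PGE than in LPS (-0.24 ± 0.08, limma adjusted p = 0.042). In all, 5 of the 15 rose with LPS plus PGE and 4 with LPS against untreated cells, and 0 fell by limma. The receptor Egfr did not pass in any comparison, with means of 5.92, 6.13 and 5.99 in LPS plus PGE, LPS and untreated arrays.

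With LPS plus PGE against LPS, the platelet-derived growth factor genes Pdgfb and Pdgfa went the other way from Vegfa, Thbs1, Inhba and Ereg. Pdgfb, whose product draws pericytes and smooth muscle cells to vessels, was read at 10.59, 10.46, 10.53 and 10.57 in LPS plus PGE arrays, 11.35, 11.24 and 11.35 in LPS arrays and 10.55, 10.28, 10.34 and 10.52 in untreated arrays. The LPS arrays stood above all others, and LPS plus PGE and untreated arrays overlapped. LPS plus PGE lowered Pdgfb against LPS (-0.77 ± 0.08, limma adjusted p = 5.79e-05), to 0.59 times its level with a 95% interval from 0.52 to 0.66. LPS raised it over untreated cells by 0.88 ± 0.08, or 1.85-fold (limma adjusted p = 5.77e-06), and LPS plus PGE stood at 0.11 ± 0.07 from untreated cells, with an interval from -0.04 to 0.27 (limma adjusted p = 0.242).

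Pdgfa, which acts on fibroblasts and other mesenchymal cells, was read at 9.18, 9.11, 9.18 and 9.25 in LPS plus PGE arrays, 9.45, 9.36 and 9.58 in LPS arrays and 9.60, 9.43, 9.33 and 9.38 in untreated arrays. All LPS plus PGE arrays lay below all others, by little. The fall against LPS was -0.28 ± 0.08 (limma adjusted p = 0.0223) and against untreated cells -0.25 ± 0.07 (limma adjusted p = 0.0189), and LPS against untreated cells gave 0.03 ± 0.08 (limma adjusted p = 0.863). Both falls missed the threshold after cyclic loess normalization (adjusted p = 0.132 and 0.202) or quantile normalization (0.0821 and 0.0574). Without LPS plus PGE replicate 2 the adjusted p was 0.0535 against LPS and 0.0528 against untreated cells, without LPS replicate 3 it was 0.0862 against LPS, and without untreated replicate 1 it was 0.0501 against untreated cells.

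Of 5 other PDGF genes, Pdgfc, Pdgfd, the receptors Pdgfra and Pdgfrb and the processing enzyme Furin, 1 rose and 1 fell with LPS plus PGE against LPS, and 0 passed after cyclic loess normalization. The calls before it were Pdgfrb (0.33 ± 0.11, limma adjusted p = 0.0492) and Furin (-0.17 ± 0.05, limma adjusted p = 0.0434). Pdgfrb also marks stroma, and the list of 9 fibroblast and stroma markers averaged 4.66 to 4.90 in LPS plus PGE, 4.65 to 4.71 in LPS and 4.63 to 4.82 in untreated arrays. The part of such cells in these values was not tested.

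Igf1, a growth factor that tissue macrophages make, was read at 11.79, 11.77, 11.78 and 11.88 in LPS plus PGE arrays, 11.91, 11.88 and 11.82 in LPS arrays and 11.65, 11.86, 11.82 and 11.81 in untreated arrays. The groups overlapped throughout. The difference between LPS plus PGE and LPS was -0.06 ± 0.06 (limma adjusted p = 0.498) with a 95% interval from -0.20 to 0.08. Against untreated cells it was 0.02 ± 0.06 with LPS plus PGE (interval from -0.11 to 0.15), and with LPS it was 0.08 ± 0.06 (interval from -0.06 to 0.22). At the deposited scaling these intervals leave room for a change of up to 1.17-fold, the upper bound of LPS against untreated cells. With equal array medians that comparison gave 0.20 (adjusted p = 0.0563), so the bound does not cover other scalings.

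Among 14 measured genes for other IGF ligands, receptors, binding proteins and adaptors, 2 rose with LPS plus PGE against LPS, 2 with LPS plus PGE against untreated cells and 1 with LPS, and 0 fell by limma. Irs2, the adaptor that carries insulin and IGF receptor signals, was among the rises each time. Beside it, the binding protein gene Igfbp5 rose over LPS (0.29 ± 0.09) and Igfbp6 over untreated cells with LPS plus PGE (0.38 ± 0.12). After cyclic loess normalization neither passed (adjusted p = 0.271 for Igfbp5 and 0.0971 for Igfbp6), which left 1 rise over LPS. Irs2 rose by 0.58 ± 0.07 over LPS and by 2.09 ± 0.06 over untreated cells with LPS plus PGE, and by 1.51 ± 0.07 with LPS, with means of 9.19, 8.61 and 7.10 in LPS plus PGE, LPS and untreated arrays. The receptor Igf1r did not pass, with means of 8.17, 8.34 and 8.18.

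Genes that encode hypoxia-inducible factors and their regulators were read because Vegfa is one of their targets. Of these 8 genes 0 passed by limma between LPS plus PGE and LPS, where 24.7% of all genes passed in either direction. RNA levels do not measure the activity of these factors, and their part in the Vegfa values was not tested. Vhl, which marks these factors for breakdown, fell by 0.87 with LPS plus PGE (SE 0.08) and by 0.80 with LPS (SE 0.08) against untreated cells. Hif1a had means of 10.63, 10.70 and 10.55 in LPS plus PGE, LPS and untreated arrays and did not pass. In all, LPS plus PGE against untreated cells raised 1 of the 8 and lowered 3, and LPS raised 0 and lowered 1. After cyclic loess normalization LPS plus PGE raised 2 and lowered 1. The rise before it was Egln3 (0.34 ± 0.11) and the falls were Vhl, Hif1an (-0.30 ± 0.09, adjusted p = 0.227 after cyclic loess normalization) and Egln1 (-0.29 ± 0.06). Egln1, Egln3 and Hif1an encode oxygen-dependent inhibitors of these factors.

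**Figure D3:**
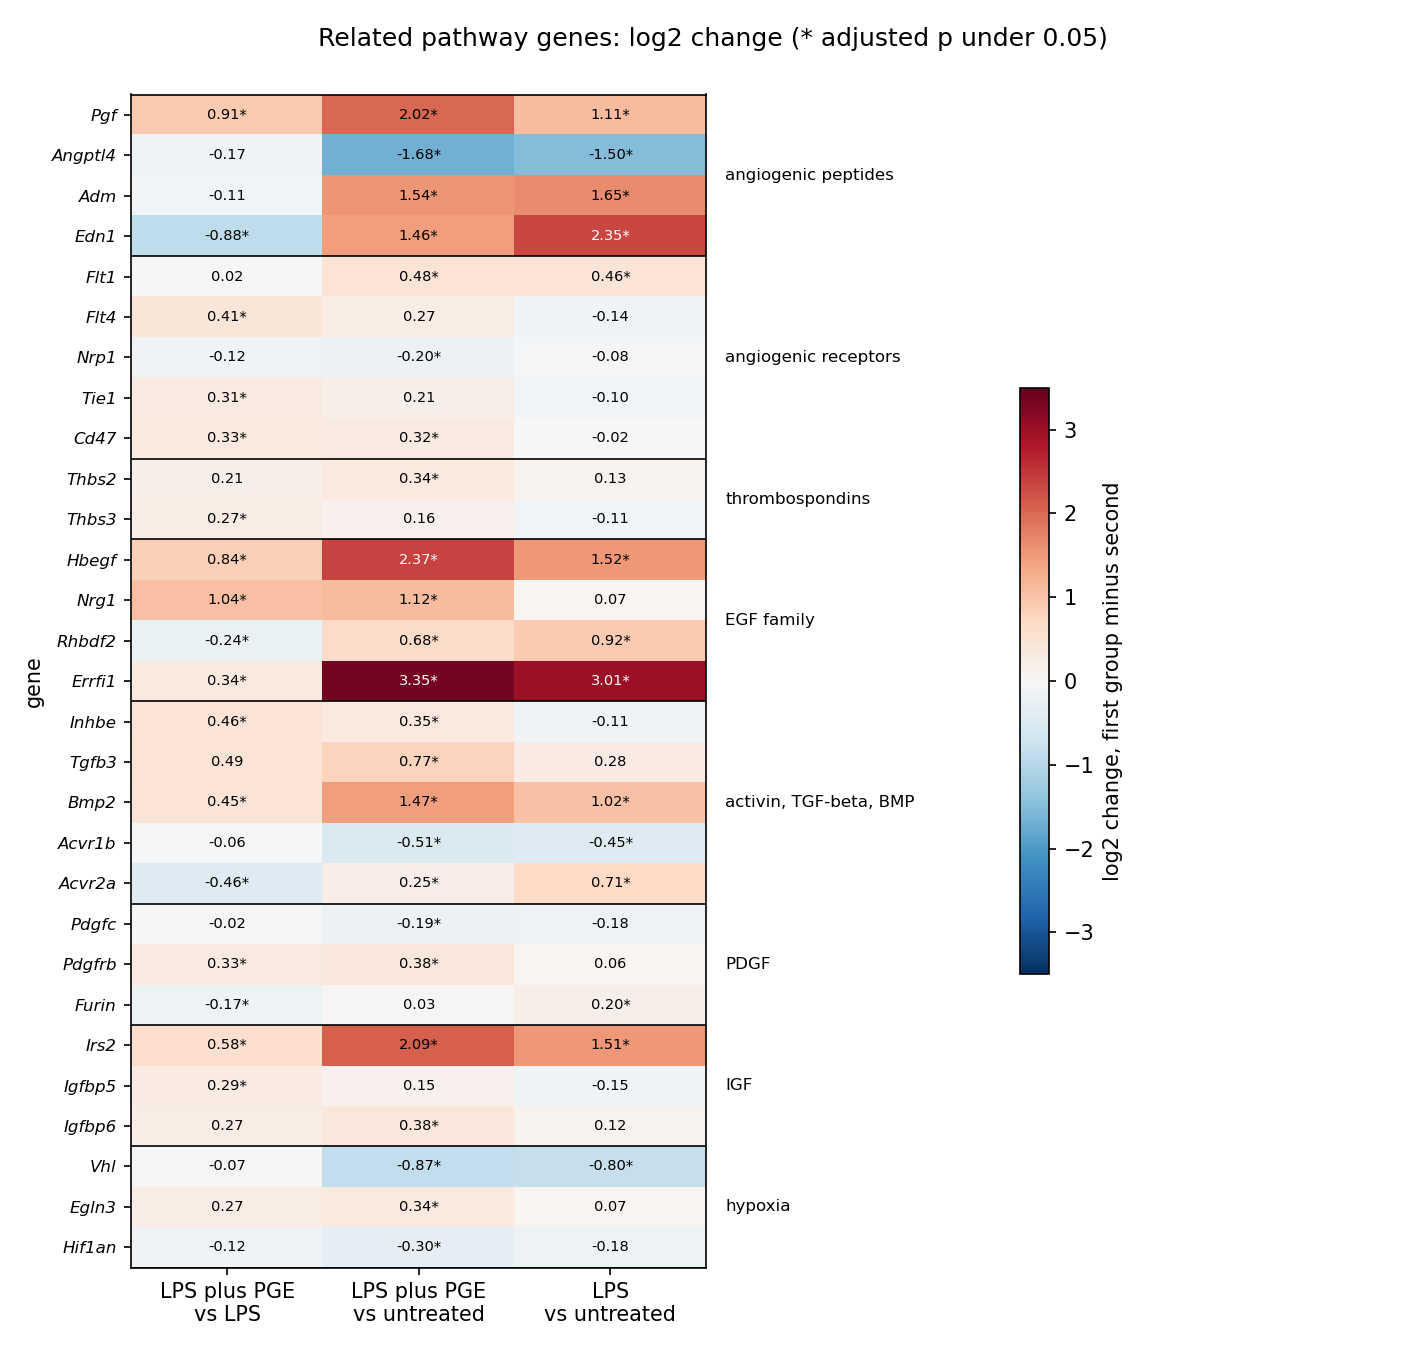
Rows are related pathway genes, grouped by list, with the 3 largest changes of each list among those that passed; columns are the 3 comparisons. Colour and number give the log2 change, first group minus second, and a star an adjusted p under 0.05. Errfi1 has the deepest colour, at 3.35 and 3.01 against untreated cells. Edn1, Acvr2a, Rhbdf2 and Furin are higher with LPS over untreated cells and lower with LPS plus PGE against LPS. The falls of Acvr2a, Rhbdf2 and Furin against LPS did not pass after cyclic loess normalization.

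Over the 8 lists together, 16 of 88 related genes rose and 6 fell with LPS plus PGE against LPS, 25 rose and 8 fell with LPS plus PGE against untreated cells, and 13 rose and 3 fell with LPS against untreated cells. In the same order, 11.9%, 13.8% and 6.55% of all genes rose, and 12.9%, 17.9% and 6.69% fell. The counts of each list above, before cyclic loess normalization, are to be read beside those shares, and no list was tested as a set. Among the 88 genes, cyclic loess normalization left 7 rises and 2 falls, 22 and 4, and 13 and 3. Over all 18755 genes it gave 1085 rises and 1038 falls, 2129 and 1788, and 1488 and 1094, in the same order. The shares above were taken before that normalization and do not go with the counts after it. The median change of these 88 genes was 0.07, 0.14 and 0.04 in the same order, beside medians over all genes of -0.0045, 0.017 and -0.015. Of 8 neutrophil markers 0 rose and 1 fell with LPS plus PGE against LPS.

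The genes whose values over the 11 arrays were most like those of each growth factor gene were picked by Pearson correlation among 591 named genes whose group means spanned at least 1 on the log2 scale. The arrays form 3 groups, so the correlation mostly follows the group means, and it is a description. Vegfa was most like Odc1 (ornithine decarboxylase, r = 0.994), the lipid droplet gene Hilpda (0.994) and the AP-1 subunit gene Fosl2 (0.992). Thbs1 was most like Cytip (0.995), Isy1 (0.992) and the transcription factor gene Nfil3 (0.990). Inhba was most like the cytokine gene Lif (0.994), B4galt5 (0.994) and Dennd4a (0.990), and Ereg most like Tnfsf14 (0.984), Spred2 (0.982) and Mmd (0.982).

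Pdgfb was most like Hmgb2 (0.979), the NADPH oxidase gene Nox1 (0.969) and Depp1 (0.964). These 3 shared its shape: Hmgb2 changed by -1.03 with LPS plus PGE against LPS and by 1.32 with LPS against untreated cells, Nox1 by -1.41 and 1.62, and Depp1 by -1.21 and 1.56. For Pdgfa the first match was Zfp947 (0.895), followed by Zfp607a (0.870) and Fbxo5 (0.837). Its own group means were 9.18, 9.46 and 9.43 in LPS plus PGE, LPS and untreated arrays. Genes with changes that small were not among the candidates, so a closer match could have been left out.

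**Figure D4:**
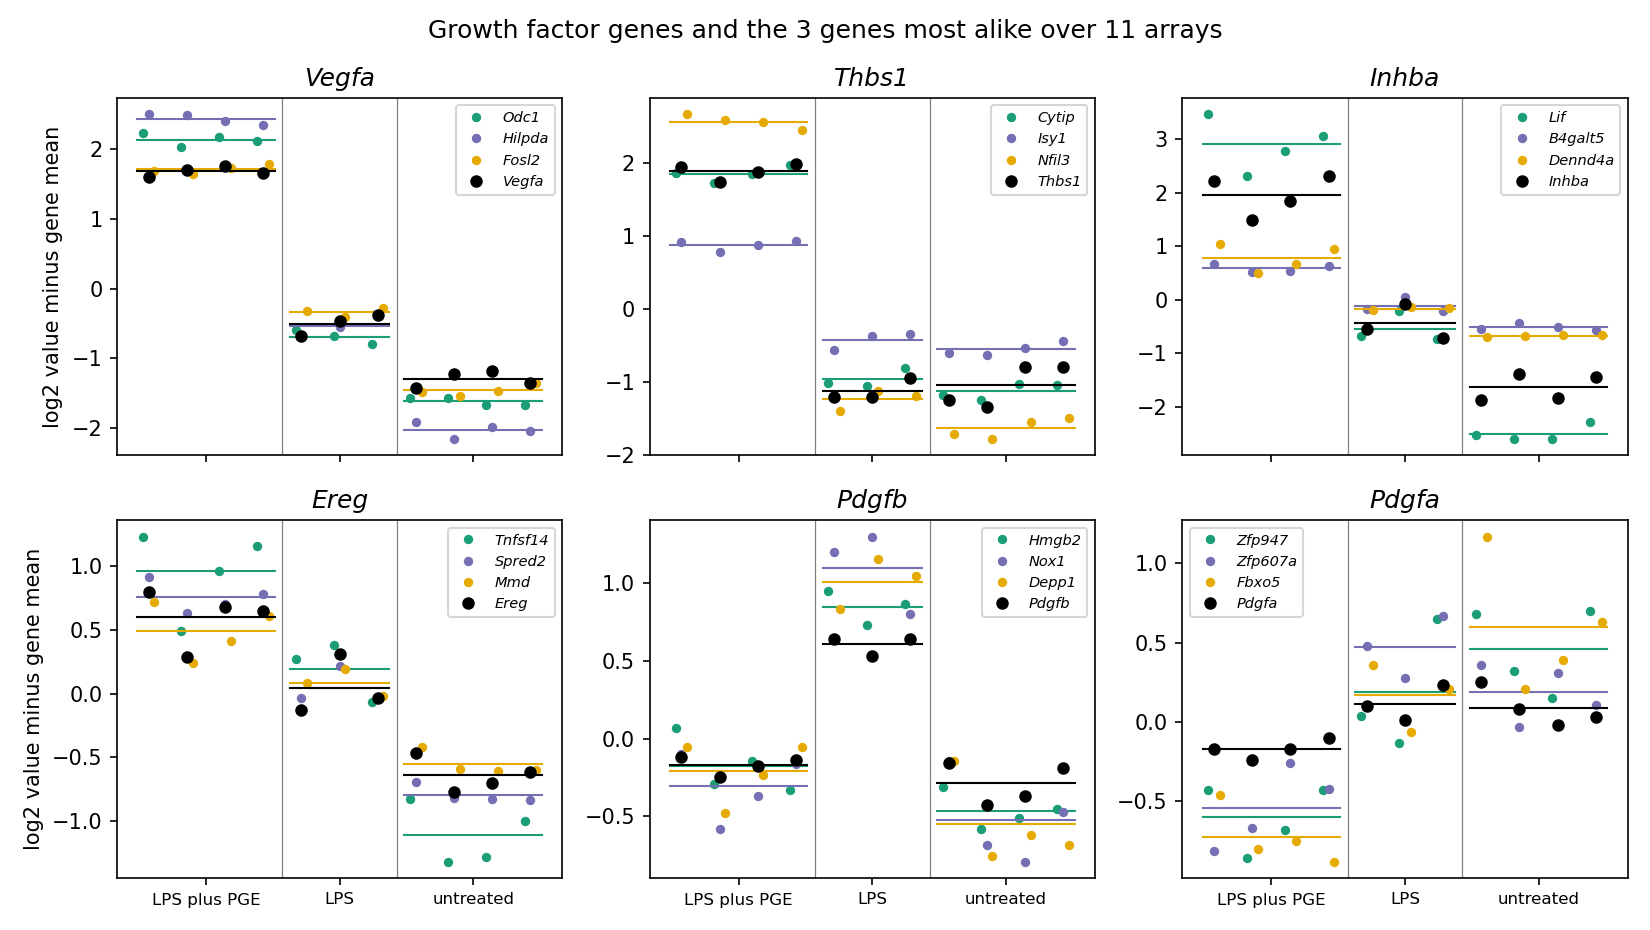
Each panel sets 1 growth factor gene (black) beside the 3 genes most like it, as log2 value minus the gene's mean over 11 arrays, with LPS plus PGE, LPS and untreated arrays from left to right. Points are arrays and lines group means. For Thbs1 the LPS and untreated points mingle below those of LPS plus PGE, while for Pdgfb the LPS points lie above both other groups.

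Within LPS plus PGE, replicate 2 gave the lowest value for 6 of the 8 genes, a pattern seen only after the values were examined. Its Inhba value was 8.38 beside 8.74 to 9.20 in the other arrays of that group, and its Ereg value 5.23 beside 5.59 to 5.74. With that array left out, the change over LPS was 2.56 for Inhba, 3.06 for Thbs1 and 0.66 for Ereg.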

How the data were processed

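Transcripts were measured on Affymetrix mouse gene arrays from 250 ng of total RNA per sample. The deposited values are log2 expression values per probe set. The log2 scale is inferred from RMA, which the submitters' processing notes name, and from how far the values reach (1.20 to 13.81). Partek, R 2.13.1 and Affymetrix Power Tools are listed there too, and per the labels 1 of 12 arrays was left out by the authors for quality. The sources used here name no genome build for the arrays, and the sequence windows are from RefSeq on GRCm38.p6.

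Of 35309 probe sets, 21143 carried 1 gene symbol. For each gene the probe set of highest mean was kept, which gave 18755 genes. The 3 group means were estimated over the 11 arrays by limma 3.58.1 (R 4.3.3), with 8 residual and 3.77 prior degrees of freedom, unpaired and two-sided. Plots used Python 3.11.15 and matplotlib 3.10.9. Precision is limited by how few arrays there are. The fit was tested on simulated data.

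The 8 genes, the related lists and the tests were chosen with earlier results of these data known. All 8 genes are described. Of each related list the 3 largest changes among genes that passed in a comparison could be named, with the other ligands and receptors of a growth factor's family, and for each growth factor gene that passed, the 3 most alike genes. The alternatives were quantile, cyclic loess and equal-median scaling, a trended and robust variance, the 2 groups alone, leaving out dim genes (means below the lower tertile, 4.31), averaging the probe sets of a gene, all probe sets, replicate number as a block, leaving out each array in turn, and a minimum change of 2-fold.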

Additional observations from a re-analysis of the deposited data

Results flagged for a closer look

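Igf1 in LPS plus PGE replicate 4 was read at 11.88, apart from the other 3 arrays of its group, which lay between 11.77 and 11.79. The gap was 0.833 of the group's range, just over Dixon's 95% critical value for 4 samples. Of 16 groups of 4 examined this was the only one past that value, and chance alone sets off about 1 group in 20. Without that array Igf1 in LPS plus PGE stayed short of the threshold against both other groups.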

How the results depend on the processing

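The rises of Vegfa, Inhba and Ereg in all 3 comparisons, of Thbs1 with LPS plus PGE and of Pdgfb with LPS, and the fall of Pdgfb with LPS plus PGE against LPS, kept their direction and passed the adjusted p in all 20 settings other than the 2-fold threshold. The fall of Pdgfa against LPS passed in 16 of those 20 and against untreated cells in 15, and both missed after quantile and cyclic loess normalization. Many of the 20 settings could not move an estimate, so its direction was fixed there and only the p-value could change. They were the trended variance, the 2 groups alone, leaving out dim genes, all probe sets and leaving out an array of the third group. Averaging probe sets was another, since each of the 8 genes had 1. The number of falls among the 8 genes for LPS plus PGE against untreated cells, 1 as reported, was 0 after quantile, cyclic loess or equal-median scaling or at 2-fold and 2 with a trended and robust variance or a replicate block. Against LPS, 2 as reported, it was 1 after quantile or cyclic loess normalization and 0 at 2-fold. At 2-fold LPS raised 1 of the 8 over untreated cells. With arrays left out in turn the falls were 0 to 1 against untreated cells and 1 to 2 against LPS, and the rises stayed at 4 in each comparison.

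Over all genes a 2-fold threshold left 294 rises and 68 falls for LPS, 349 and 208 for LPS plus PGE against untreated cells, and 106 and 28 against LPS. LPS plus PGE against LPS gave 1203 rises and 1155 falls after quantile and 1085 and 1038 after cyclic loess normalization, 1260 rises without the dim genes, and 1412 to 2324 falls with arrays left out (1412 without LPS replicate 3). Falls of LPS plus PGE against untreated cells numbered 2206 after quantile, 1788 after cyclic loess and 2119 with equal medians (4499 rises), and 5135 over all probe sets. LPS falls were 613 with equal medians (2747 rises) and 2207 over all probe sets. The cause of these differences was not tested.

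Among the 8 genes, signs changed only for differences that did not pass: Thbs1 with LPS (0.038 with equal medians; -0.17 to 0.0080 with arrays left out), Pdgfa with LPS (-0.028 to 0.083 with arrays left out), Igf1 with LPS plus PGE against untreated cells (-0.022 to 0.046) and Vegfb with LPS plus PGE against LPS (-0.018 with equal medians; -0.017 to 0.068). Of 10 array pairs with the same replicate number in different groups, 7 had deviations correlated over 0.1 (range -0.02 to 0.21), and pairs with different numbers lay between -0.14 and 0.095. All 11 arrays were closest, among arrays of other groups, to one with their own number, which hints at pairing. The labels do not state it and 3 of the 10 pairs were not over 0.1, so the unpaired fit was kept. With the replicate block Vegfb passed for LPS plus PGE against untreated cells (-0.19, adjusted p = 0.0437), and no other call among the 8 genes changed. Dim genes are limited by an unmeasured background.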
